A study of Rattus norvegicus with 6 samples.

Results

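RK3E is a rat kidney epithelial line that carries an adenovirus early-region oncogene. It was transfected with a construct expressing GLI1, a zinc finger transcription factor through which Hedgehog signals reach the genes, and foci of transformed cells were picked and kept as lines. Of the 6 arrays of the study, 4 carried RNA of GLI1-transformed cells, and these 4 were compared with each other here. The 2 arrays titled clone II were set against the 2 other GLI1 arrays, of which 1 is titled clone I and 1 names no clone. The arrays were grouped by their titles. These members and all 41 gene lists used below were chosen with earlier results of these data known. The 2 arrays of parental RK3E cells served only to show which side of a difference lay away from the starting line. All cells were grown in medium with 10% serum, and no group received a further agent. The labels call the arrays biological replicates, so p-values measure no more than the spread from array to array; both clone II arrays come from 1 line, and whether the array without a clone name is of clone I is not stated.

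In the Hedgehog pathway a ligand relieves Smoothened of inhibition by its receptor, and GLI factors then switch on target genes, some of which feed back on the pathway. A focus is a patch of transformed cells that has outgrown its neighbours, and lines picked from separate foci can differ in genes other than the driver.

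Values are log2 of the MAS5 signal, 1 per probe set and array, and a difference is clone II minus the other GLI1 arrays unless stated otherwise. A difference was called at an adjusted p under 0.05 in the limma fit. In 10240 genes with 1 probe set each, 3 genes were higher in clone II, which is 0.0293% of those tested, and 15 were lower, which is 0.146%. Over all 18625 probe sets tested the calls were 3 higher (0.0161%) and 21 lower (0.113%), and 4 called probe sets had no single gene name. At an unadjusted p under 0.05 there were 678 probe sets higher and 933 lower, or 449 and 603 genes. Clone II against parental cells had calls for 9.73% of the probe sets, and the other GLI1 arrays against parental cells for 12.4%.

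The 2 other GLI1 arrays were not a close pair. They correlated at r = 0.941 over the tested probe sets, and 10.2% of probe sets lay 2-fold or more apart between them, against 7.60% between the clone II arrays (r = 0.951). The clone I array correlated with the clone II arrays at 0.943 and 0.953, and the array without a clone name at 0.921 and 0.920. Without the array that names no clone, 1 probe set was called higher and 0 lower; without the clone I array, 50 were called higher and 44 lower. Values of each array are therefore given for most genes named. The ratio of 3' to 5' signal of GAPDH, a sign of RNA quality, was 7.52 and 1.39 on the clone II arrays, 2.09 and 1.45 on the others and 3.66 and 1.43 on the parental arrays. Without the clone II and parental arrays of higher ratio, 3 probe sets were called higher and 4 lower.

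Markers of kidney epithelium were mostly low on all arrays. Of 8 such markers only Krt8 and Epcam passed the filter on low signal, and Krt18, Krt19, Cdh1, Cdh16, Pax2 and Pax8 did not, so the labelled cell type rests on few genes here.

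Neither the driver nor the pathway inhibitor Hhip was called. Gli1 read 13.15 on the array without a clone name, 11.71 on the clone I array, 11.77 and 12.17 on the clone II arrays, and 5.84 on average on the 2 parental arrays. The GLI1 arrays thus stood far above the parental arrays, and the clone II values lay inside the range of the other GLI1 arrays. The probe set's position relative to the transfected sequence is not known, so these values do not separate the construct from the cells' own gene. The difference was -0.46 (SE 0.56, adjusted p = 0.869). Hhip, a Hedgehog-binding inhibitor that GLI factors induce, read 11.38 and 10.74 against 10.76 and 11.22, with 7.68 and 7.17 in parental cells, a difference of -0.07 (SE 0.38, adjusted p = 0.974). An adjusted p above the threshold does not show that the levels were equal.

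None of the 22 measured Hedgehog pathway genes was called by limma (3 lower and 0 higher at an unadjusted p under 0.05), and their median difference was -0.16 beside 0.01 for all genes. It was -0.32 against the array without a clone name and -0.02 against clone I. In 3 of them both clone II arrays lay below both other arrays by 2-fold or more on average. Over all 10240 genes, 3.27% lay below in this way. Gpc3, a glypican that binds Hedgehog ligand, read 13.77 without a clone name and 12.36 in clone I against a clone II mean of 11.35 (-1.71, adjusted p = 0.25); leaving out 1 array moved the difference between -2.42 and -1.01. Scube1, a secreted protein of a family that acts in ligand release, read 11.29 and 10.36 against 9.46 and 7.65 (-2.27, adjusted p = 0.277), moving between -3.17 and -1.36. Dhh, a ligand gene, read 10.42 and 10.38 against 8.43 and 8.41 (-1.98, adjusted p = 0.23). Among 25 reported GLI targets, Ccnd2 was called and the median was -0.19. Of the 25, 19 lay below 0, beside 4983 of 10240 over all genes. The GLI target median ran from -0.50 without the clone I array to -0.06 with arrays centred on their medians.

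Ccnd2, the D-type cyclin D2 that drives entry into the cell cycle, was the called GLI target. It read 16.33 and 15.74 on the other GLI1 arrays and 13.82 and 14.15 in clone II, against 10.32 and 10.34 in parental cells. The 3 groups did not overlap and clone II took a middle place, 4.14-fold below the other GLI1 arrays (log2 difference -2.05, SE 0.24, adjusted p = 0.0371). Ccnd1, the related cyclin D1, read 12.14 and 10.76 against 9.97 and 9.95 and did not pass (-1.49, adjusted p = 0.51).

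**Figure D1:**
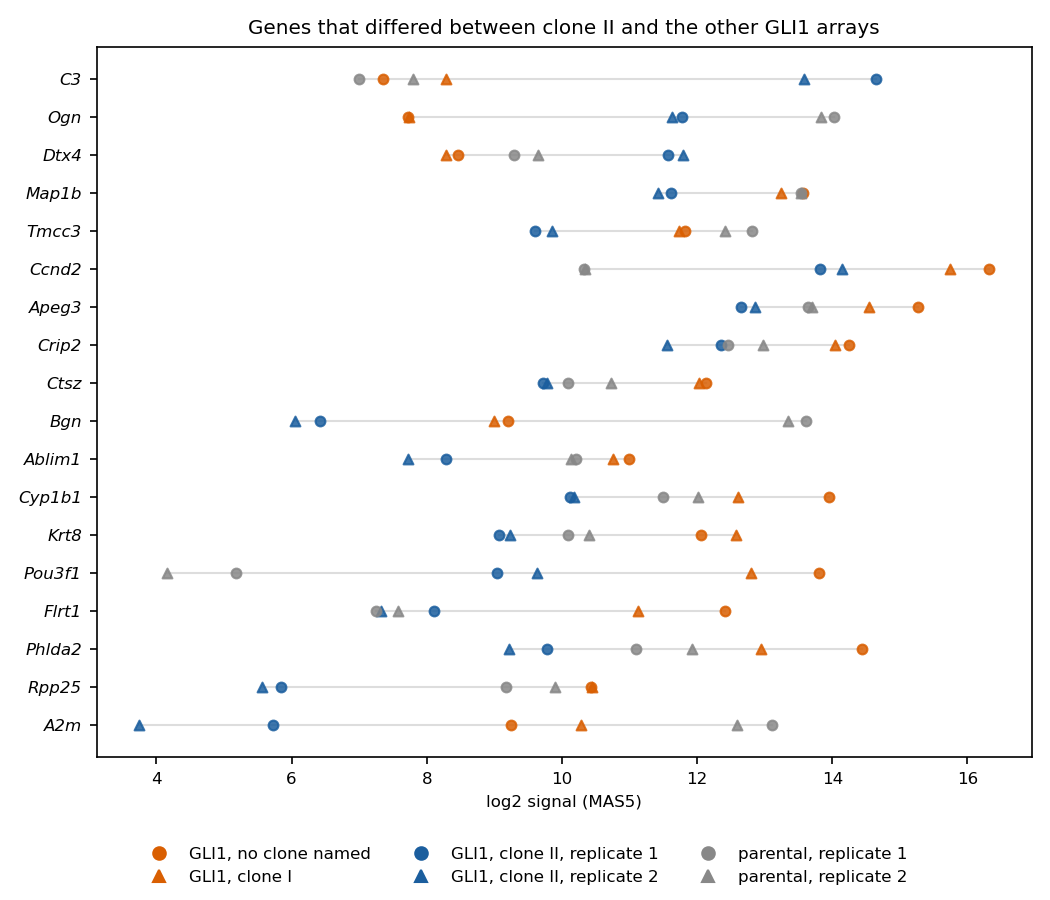
Log2 MAS5 signal of the 18 called genes on each of the 6 arrays, in the order of their log2 difference; orange marks the other GLI1 arrays, blue clone II and grey parental cells, and grey lines span the 6 values. C3, Ogn and Dtx4 are higher in clone II and the other 15 are lower, while the grey points lie on either side or in between.

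In 7 of the 18 called genes 1 side had a mean under 8.33, the mean log2 signal that a probe set needed to be tested, so that they passed the filter through the other arrays. These were C3 and Ogn, low on the other GLI1 arrays, and A2m, Ablim1, Bgn, Flrt1 and Rpp25, low in clone II. No linear fold is given for them. Their log2 differences are given below, but the sizes rest on weak signals on 1 side. Apart from C3 and Ogn, the called genes stayed called in 7 to 12 of 18 or 19 alternative settings each, and in 0 (Ctsz and Pou3f1) to 2 (Rpp25) of the 6 fits that left out 1 array.

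The largest called difference was in C3, the central complement component, though its size rests on weak signals on the other GLI1 arrays. Clone II read 14.64 and 13.58, the other GLI1 arrays 7.35 and 8.28, and the parental arrays 6.99 and 7.80. The values of the other GLI1 arrays overlapped the parental ones, and only those of clone II lay apart. The difference was 6.30 (SE 0.50, adjusted p = 0.00722); clone II minus parental was 6.72 and the other GLI1 arrays minus parental 0.42. C3 was called in 17 of 18 alternative settings, with an adjusted p between 0.00218 and 0.091.

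Ogn, which encodes the small leucine-rich matrix proteoglycan osteoglycin, was highest in the parental cells. It read 14.03 and 13.83 there, 11.78 and 11.63 in clone II, and 7.72 and 7.74 on the other GLI1 arrays. The groups did not overlap, and clone II lay above the other arrays (3.98, SE 0.24, adjusted p = 0.00177). It was called in all 19 alternatives run, the adjusted p running up to 0.0488. Against parental cells it fell by 2.23 in clone II and fell by 6.20 on the other GLI1 arrays. These values are of its brightest probe set. Its dimmer probe sets differed by 3.81 and 5.40 in the same direction and were not called (limma adjusted p = 0.238 and 0.169).

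Dtx4, an E3 ubiquitin ligase of the Deltex family linked to Notch signalling, read 11.57 and 11.79 in clone II, 8.47 and 8.29 on the other GLI1 arrays and 9.29 and 9.65 in parental cells. Parental cells lay between, nearer the other GLI1 arrays. The difference was 3.30 (SE 0.32, adjusted p = 0.0157), 9.84-fold. Dtx1, a relative, read lower in clone II, at 12.22 and 11.39 against 13.08 and 12.53 on the other GLI1 arrays, and did not pass (adjusted p = 0.452).

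Lower genes of the cell surface and the matrix included A2m and Bgn. A2m, which encodes the protease inhibitor alpha-2-macroglobulin, read 5.73 and 3.74 in clone II, 9.24 and 10.28 on the other GLI1 arrays and 13.11 and 12.59 in parental cells. Bgn, the proteoglycan biglycan, read 6.42 and 6.05 against 9.20 and 9.00, with 13.61 and 13.35 in parental cells. Both fell in both sets of GLI1 cells from the parental level and were lowest in clone II, by -5.02 (SE 0.67, adjusted p = 0.0436) for A2m and by -2.86 (SE 0.34, adjusted p = 0.0371) for Bgn.

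Flrt1, a leucine-rich transmembrane protein of cell adhesion, read 8.11 and 7.32 in clone II and 7.25 and 7.58 in parental cells, all under 8.33, and 12.41 and 11.13 on the other GLI1 arrays. The difference was -4.05 (SE 0.53, adjusted p = 0.0436). No order is drawn between clone II and parental cells, since both were dim. Pou3f1, a POU-domain transcription factor of neural and Schwann cells, rose less in clone II than on the other GLI1 arrays. It read 9.03 and 9.64 in clone II, 13.80 and 12.80 on the other GLI1 arrays, and 5.18 and 4.15 in parental cells. Its difference was -3.96 (SE 0.52, adjusted p = 0.0436).

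Several lower genes lay on opposite sides of parental cells in the 2 sets. Krt8, the simple-epithelial keratin 8, read 9.07 and 9.23 in clone II, 12.06 and 12.57 on the other GLI1 arrays and 10.08 and 10.40 in parental cells. The difference was -3.17 (SE 0.29, adjusted p = 0.0157); the rise of 2.07 on the other GLI1 arrays passed (adjusted p = 0.00359), and the clone II value of -1.09 against parental did not (adjusted p = 0.0538). Cyp1b1, a cytochrome P450 that oxidises steroids and xenobiotics, read 10.12 and 10.18 in clone II, 13.95 and 12.61 on the others and 11.50 and 12.01 in parental cells. It fell by 1.60 in clone II (adjusted p = 0.0445) and rose by 1.53 on the other GLI1 arrays (adjusted p = 0.0455). Phlda2, an imprinted growth regulator with a pleckstrin homology domain, likewise fell by 2.01 in clone II (adjusted p = 0.0375) and rose by 2.18 on the others (adjusted p = 0.0233).

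Among the remaining lower genes, 4 fell from the parental level in clone II and did not pass against it on the other GLI1 arrays. Rpp25, a subunit of ribonuclease P and MRP, read 5.84 and 5.56 in clone II, 10.43 and 10.44 on the other GLI1 arrays and 9.17 and 9.89 in parental cells (difference -4.73, SE 0.46, adjusted p = 0.0157). Ablim1, an actin-binding LIM protein, read 8.29 and 7.73 in clone II, 10.99 and 10.76 on the others and 10.20 and 10.13 in parental cells (-2.87, adjusted p = 0.0371). Map1b, a microtubule-associated protein of neurons, read 11.61 and 11.42 against 13.56 and 13.24, with 13.54 on both parental arrays, and 2 of its probe sets were called, at -1.88 and -2.06. Tmcc3, a transmembrane protein with coiled coils, read 9.60 and 9.85 in clone II, 11.82 and 11.73 on the others and 12.81 and 12.41 in parental cells (-2.05, adjusted p = 0.0371).

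Ctsz, the lysosomal protease cathepsin Z, Crip2, a LIM-domain protein, and Apeg3, an antisense RNA of the imprinted Peg3 locus, instead rose on the other GLI1 arrays from parental, by 1.67, 1.44 and 1.23. Ctsz read 9.72 and 9.78 in clone II and 12.14 and 12.02 on the others, Crip2 12.35 and 11.55 against 14.25 and 14.05, and Apeg3 12.65 and 12.86 against 15.27 and 14.54. Their clone II values against parental were -0.66, -0.76 and -0.92 and did not pass. Their differences between the 2 sets were -2.33, -2.20 and -2.15, with adjusted p of 0.0403, 0.049 and 0.0371. The dimmer probe sets of Apeg3 differed by -1.69 and -1.45 and were not called (limma adjusted p = 0.16 and 0.319). Whether the array's probes and labelling separate Apeg3 from Peg3 was not tested. Dusp6, the phosphatase that limits ERK signalling, was called only on a dimmer probe set (-2.47, adjusted p = 0.0371), while its brightest read -1.42 (adjusted p = 0.0995).

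The parental mean showed no common side. Of the 15 lower genes it lay beyond the other GLI1 arrays for 4, between and nearer them for 3, between and nearer clone II for 5, and beyond clone II for 3. Of the 3 higher genes it lay beyond the other arrays for C3, between and nearer them for Dtx4, and beyond clone II for Ogn. For C3, and for Flrt1 among the lower genes counted beyond clone II, the parental mean and that of the nearer set were both under 8.33. Their order is not read as a result.

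A wider and untested class took genes whose clone II arrays both lay on 1 side of both other arrays, with a mean difference above 2-fold. It held 146 genes above (1.43% of 10240) and 335 below (3.27%). For the 335 the parental mean lay beyond the other GLI1 arrays in 77 and between but nearer them in 63. It lay between but nearer clone II in 83 and beyond clone II in 112. For the 146 it lay beyond the other GLI1 arrays in 24, between but nearer them in 22 and between but nearer clone II in 24. For 76 of the 146 it lay beyond clone II, as for Ogn. Some genes of small p that missed the threshold on the higher side were of this kind, among them the transcription factor genes Hoxa9 (1.72, adjusted p = 0.0525), Maf (1.66, adjusted p = 0.0569) and Nfix (1.69, adjusted p = 0.0748), the differentiation inhibitor Id2 (1.93, adjusted p = 0.0565), the membrane glycoprotein Gpm6a (2.03, adjusted p = 0.063) and the G protein regulator Rgs10 (1.49, adjusted p = 0.0692). Hoxa9 read 9.88 and 9.50 on the other GLI1 arrays, 11.54 and 11.27 in clone II and 14.49 and 14.33 in parental cells. Each of these 6 had its highest mean in parental cells and its lowest on the other GLI1 arrays.

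Genes of inflammation and complement read higher on the clone II arrays. Of 26 measured, 22 lay above 0, beside 5257 of 10240 over all genes. Their median was 0.76 beside 0.01 for all genes. C3 was called, and 6 were in the wider class above and 0 below, beside 1.43% and 3.27% of all genes. Ccl2, the monocyte chemoattractant, read 11.84 and 11.35 in clone II, 6.71 on the array without a clone name and 9.84 on the clone I array, with 6.77 and 6.62 in parental cells (3.32, adjusted p = 0.258). Cxcl1, a neutrophil chemoattractant, read 12.57 on both clone II arrays, 8.12 and 11.34 on the others and 7.85 and 7.30 in parental cells (2.83, adjusted p = 0.361). Ptgs2, the inducible prostaglandin synthase, read 9.86 and 9.94 against 5.89 and 7.85, but parental cells read 9.96 and 9.50, as in clone II (3.03, adjusted p = 0.159). In each of these the clone I array lay between the array without a clone name and clone II. Ptgs2 was under 8.33 on both other GLI1 arrays, and Ccl2 and Cxcl1 on the array without a clone name. The sizes of their differences thus rest partly on weak signals. The list's median was 1.27 for clone II against the array without a clone name, 0.13 against the clone I array, and 0.96 for clone I against the array without a name. The wider class held 4 of its genes above and 2 below without the array that names no clone.

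All 18 measured genes of antigen processing and MHC class I lay above 0, beside 5257 of 10240 over all genes, with a median of 0.75. None was called by limma. At an unadjusted limma p under 0.05, 10 were higher and 0 lower, beside 449 and 603 of all genes. Of all genes 1.43% were in the wider class above. The wider class held 5 above: the class I genes RT1-CE16 (1.48) and RT1-CE5 (1.40), the immunoproteasome subunits Psmb8 (1.32) and Psmb9 (1.30), and Nlrc5 (1.15), the transactivator of class I genes. Psmb8 read 13.45 and 13.79 in clone II, 11.66 without a clone name, 12.94 in clone I, and 10.39 and 11.02 in parental cells. Here too clone I lay nearer clone II: the list's median was 0.44 against clone I and 1.13 against the array without a clone name, and without the latter 0 genes were in the wider class. Interferon-induced genes, 38 measured, had a median of 0.18, and 3 were in the wider class above and 1 below; the median was 0.47 against the array without a clone name and -0.16 against clone I, so its sign turned with 1 array.

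Most markers of immune cells were too dim to test. Of 14 on the array 4 passed the filter, and none of these was called or in the wider class. The summed signal of all 14 was 3903 and 2941 in clone II, 2635 on the array without a clone name and 6220 on the clone I array. The median of the 4 was 0.15 for clone II against the array without a clone name and -0.24 against clone I. It was 0.58 for clone I against the array without a name. Whether immune cells were present was not tested.

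Imprinted genes, which are read from the copy of 1 parent, read lower on the clone II arrays. Of 17 measured, 16 lay below 0, beside 4983 of 10240 over all genes, and the median was -1.10. Phlda2 was called, and 8 were in the wider class below, which held 3.27% of all genes, and 0 above. Phlda2 read 9.78 and 9.22 in clone II, 14.44 and 12.95 on the other GLI1 arrays and 11.10 and 11.93 in parental cells (-4.19, SE 0.49, adjusted p = 0.0371). Cdkn1c, the cell cycle inhibitor p57, read 12.12 and 11.64 against 15.66 and 14.17, with 12.49 and 13.54 in parental cells (-3.03, SE 0.50, adjusted p = 0.0859). H19, a noncoding RNA, read 12.97 and 12.39 against 15.06 and 14.36; parental cells read 8.06 and 9.07, so both sets had risen from parental (-2.03, adjusted p = 0.141). Igf2, the growth factor next to H19, read 13.67 and 13.61 against 15.33 and 14.36, and the parental 13.80 and 13.70 were close to clone II (-1.21, adjusted p = 0.225).

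Many of these genes were neighbours. In the gene order of the GRCr8 assembly 12 of the 17 lay on chromosome 1, and 7 of the list stood among 10 measured genes in a row from H19 to Nap1l4. Along that row the differences were H19 -2.03, Igf2 -1.21, Th 0.02, Cd81 -0.12, Tssc4 0.04, Kcnq1 -1.68, Cdkn1c -3.03, Slc22a18 -1.15, Phlda2 -4.19 and Nap1l4 -0.24. The 3 genes in the middle of the row (Th, tyrosine hydroxylase; Cd81, a tetraspanin; Tssc4) lay near 0. For Kcnq1, a potassium channel gene, the array without a clone name read 10.21, while clone I at 7.44 was close to clone II at 7.36 and 6.94 (adjusted p = 0.626). The clone I and clone II values of Kcnq1 were all under 8.33. For Slc22a18, a transporter gene, the arrays overlapped, with clone I at 9.34 and clone II at 9.46 and 8.73 (adjusted p = 0.658). Outside chromosome 1, Mest, an imprinted hydrolase gene, read 10.98 and 11.40 against 12.85 and 12.55 (-1.51, adjusted p = 0.0798). The list's median was -1.02 against the array without a clone name and -0.38 against clone I, and 6 genes were in the wider class below without the former. With no filter on low signal it was -0.60. Its members below 2-fold, and the row of neighbours, were looked at after the values were seen.

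**Figure D2:**
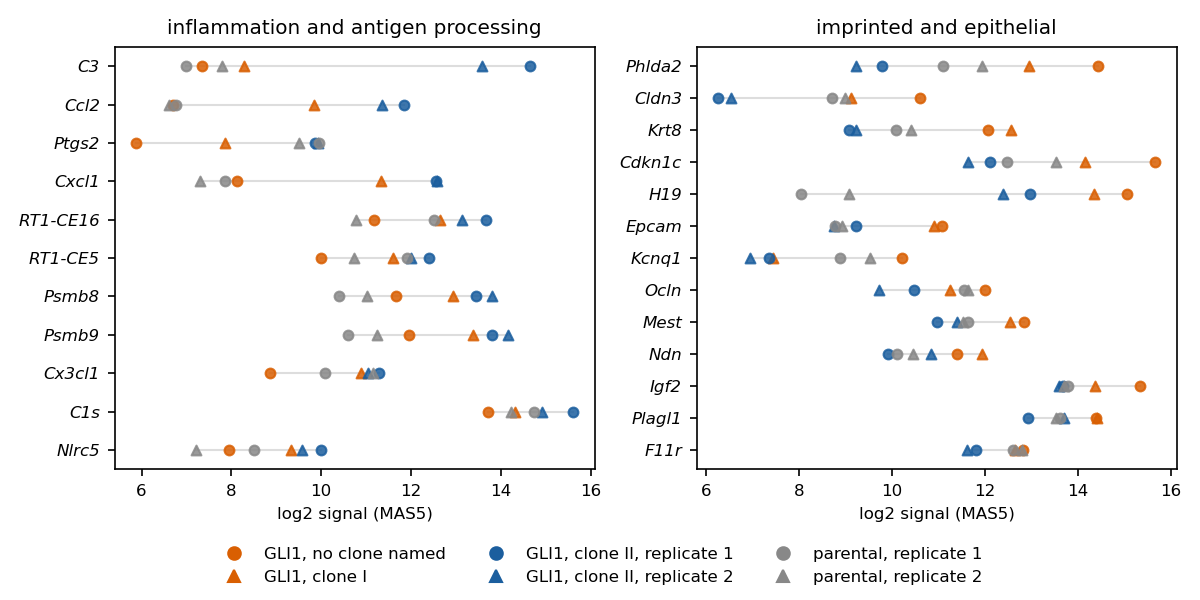
Log2 MAS5 signal on each array of the genes of 4 lists whose clone II arrays lay apart from the other GLI1 arrays by more than 2-fold. In the left panel the clone I array (orange triangle) lies between the array without a clone name (orange circle) and clone II. That clone II is highest of the GLI1 arrays on the left and lowest on the right follows from how the genes were chosen.

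Epithelial junction and keratin genes mostly read lower in clone II. Of 17 measured, 14 lay below 0 with a median of -0.41, Krt8 was called, and 5 were in the wider class below. Over all genes 4983 of 10240 lay below 0, 0.146% were called lower and 3.27% were in the wider class below. Cldn3, a tight junction claudin, read 6.27 and 6.54 in clone II, 10.61 and 9.12 on the others and 8.72 and 9.00 in parental cells (-3.46, adjusted p = 0.0999). Both clone II values were under 8.33, so the size of this difference rests on weak signals. Epcam, the epithelial adhesion molecule, read 9.23 and 8.75 against 11.09 and 10.90, with 8.77 and 8.92 in parental cells, 4.01-fold lower in clone II (adjusted p = 0.106). Ocln, occludin, and F11r, a junctional adhesion molecule, differed by -1.53 and -1.02 and did not pass. For Epcam clone II lay at the parental level, and for Ocln and F11r the other GLI1 arrays did.

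Neural and glial markers had a summed signal of 6275 and 5083 in clone II, 24279 and 14886 on the other GLI1 arrays and 8684 and 8721 in parental cells. In bulk RNA, fewer cells that express a marker and less RNA per cell cannot be told apart. Of 7 markers measured none was called by limma (3 lower and 0 higher at an unadjusted p under 0.05). Of these, 5 lay below 0 and 2 above, of which Map2, a microtubule-associated protein, read 9.88 and 10.46 in clone II against 9.75 and 9.71. Olig1, an oligodendrocyte transcription factor, carried much of it, at 10.51 and 9.02 against 13.99 and 13.06, with 6.91 and 7.80 in parental cells (-3.76, adjusted p = 0.0681). Rbfox3, a neuronal splicing factor, read 9.86 and 5.10 in clone II, and the 2 arrays of the clone thus lay far apart (-3.57, adjusted p = 0.492). The lower of these values was under 8.33, so the difference rests on a weak signal.

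Growth factor receptors and ligands, 31 measured, had a median of -0.49. None was called by limma (1 higher and 11 lower at an unadjusted p under 0.05). Of the list 9 were in the wider class, all below, beside 3.27% of all genes. Among them were Igfbp2, an IGF-binding protein (-3.56, adjusted p = 0.175), Igf1r, the IGF receptor (-1.18, adjusted p = 0.145), Ngfr, a neurotrophin receptor (-1.65, adjusted p = 0.401), and Fgfr2 (-1.05, adjusted p = 0.357). The median was -0.21 against the clone I array, -0.89 against the array without a clone name, and -0.16 with the filter at the 60th percentile. Glycolysis and hypoxia genes, 29 measured, had a median of -0.44 and 25 below 0, beside 4983 of 10240 over all genes. Their median was -0.62 against the array without a clone name, -0.25 against clone I and -0.21 without clone II replicate 2. The glucose transporters Slc2a3 (-2.41, adjusted p = 0.178) and Slc2a1 (-1.71, adjusted p = 0.159), the mitophagy receptor Bnip3 (-1.38, adjusted p = 0.478) and hexokinase Hk2 (-1.26, adjusted p = 0.569) were in the wider class. All 4 had risen from parental on the other GLI1 arrays, at adjusted p between 0.00316 and 0.0161. In clone II only Hk2 of the 4 passed against parental (2.60, adjusted p = 0.0212), which does not show that the rest had not risen there.

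Of all 10240 genes, 4983 lay below 0. Genes of the ER stress response lay below 0 in 33 of 36 cases, by a median of -0.30. Cytosolic ribosomal protein genes did so in 39 of 41, by a median of -0.20. With arrays centred on their medians, which moved the median of all genes from 0.01 to 0.14, these became -0.16 and -0.07; with quantile normalization the ribosomal median was -0.03. The ER stress median was -0.63 against the array without a clone name and -0.04 against clone I. None of either list was called by limma; at an unadjusted p under 0.05, 3 ER stress genes and 0 ribosomal genes were lower, and 0 of either were higher.

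Matrix and fibroblast genes went both ways. Of 34 matrix genes 3 were in the wider class above (Ogn, Col12a1 and Fmod) and 5 below (Bgn, Col1a1, Col3a1, Fbln1 and Vcan), with 1 call each way. Over all genes the wider class held 1.43% above and 3.27% below. The summed signal of fibroblast markers was 132798 and 119481 in parental cells, 17117 and 11914 on the other GLI1 arrays and 10290 and 8026 in clone II. The sum was thus far below parental on all 4 GLI1 arrays. Ogn read higher in clone II than on the other GLI1 arrays, and the other 4 fibroblast markers measured read lower.

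Lists of replication, mitosis, mitochondrial respiration and apoptosis showed little. No gene of 37 for DNA replication, 41 for mitosis, 60 for oxidative phosphorylation or 27 for apoptosis was called or in the wider class. At an unadjusted limma p under 0.05, 1 gene each of the last 2 lists was higher. The medians were 0.06, 0.04, 0.04 and 0.09 in that order. The mitosis median was 0.26 against the array without a clone name and -0.20 against clone I, so its sign differed between the 2 arrays; that of oxidative phosphorylation also changed, from 0.26 to -0.16.

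Cyclins, CDKs and their inhibitors went both ways. Of 17 measured, 9 lay above 0 and 8 below. Ccnd2 was called, and 2 were in the wider class above and 4 below, beside 1.43% and 3.27% of all genes. Above were Rb1, the retinoblastoma tumour suppressor (1.33, adjusted p = 0.198), and Cdkn2a, the locus of the inhibitor p16 (1.07, adjusted p = 0.313). Below were Ccnd2, Ccnd1, Cdkn1c and Cdkn1a, the inhibitor p21 (-1.27, adjusted p = 0.277). Rb1 read 11.62 and 11.10 in clone II, 10.11 and 9.94 on the other GLI1 arrays and 12.83 and 12.17 in parental cells, so the 3 groups did not overlap.

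**Figure D3:**
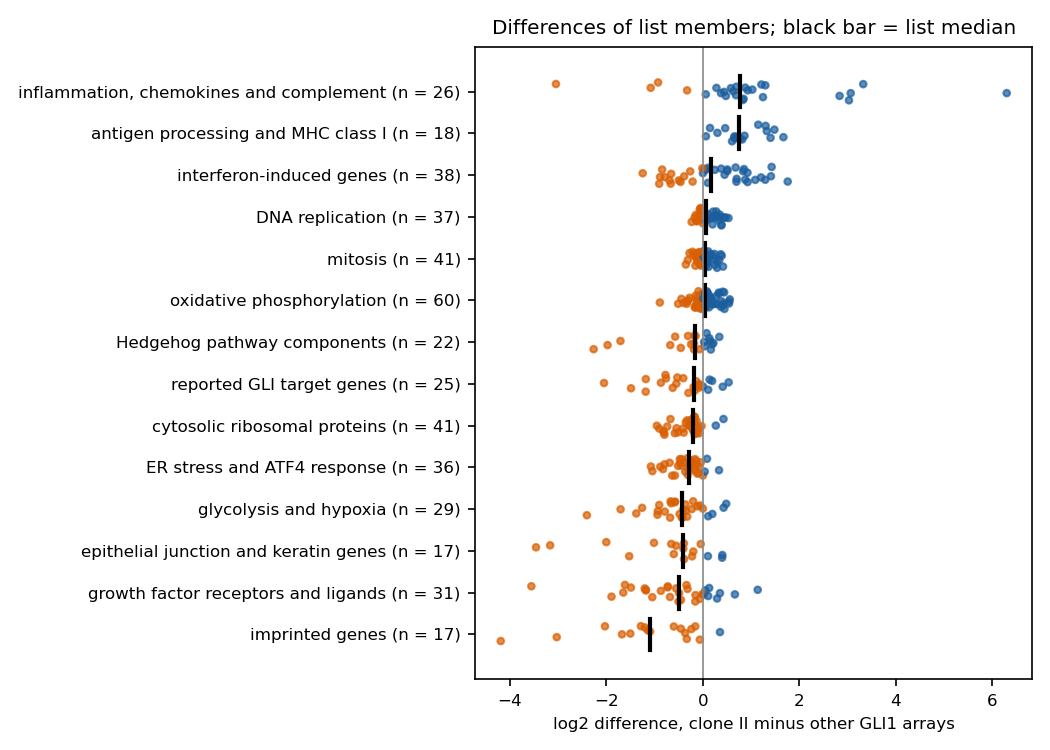
Log2 difference (clone II minus other GLI1 arrays) of each measured gene of 14 lists, with the list median as a black bar; blue points lie above 0 and orange points below. All antigen processing genes lie above 0 and 16 of 17 imprinted genes below, while replication and mitosis genes lie close to 0.

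Gene placement showed a broad pattern, which was looked at after the values were seen. On chromosome 1, 979 of 1275 measured genes (76.8%) lay below 0, with a median of -0.22, and on chromosome 7, 547 of 664 (82.4%), with a median of -0.26. Over all 10204 placed genes 48.6% lay below 0, and the medians of the other chromosomes ran from -0.09 (chromosome 4) to 0.17 (chromosome 11). Each clone II array lay below each other GLI1 array: the 4 medians ran from -0.24 to -0.19 on chromosome 1 and from -0.34 to -0.22 on chromosome 7. The clone I array differed from the array without a clone name by -0.04 and 0.07 there. Against parental cells chromosome 1 had a median of -0.10 in clone II and 0.14 on the other GLI1 arrays, and chromosome 7 had 0.03 and 0.29, beside 0.06 and 0.07 for all placed genes.

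**Figure D4:**
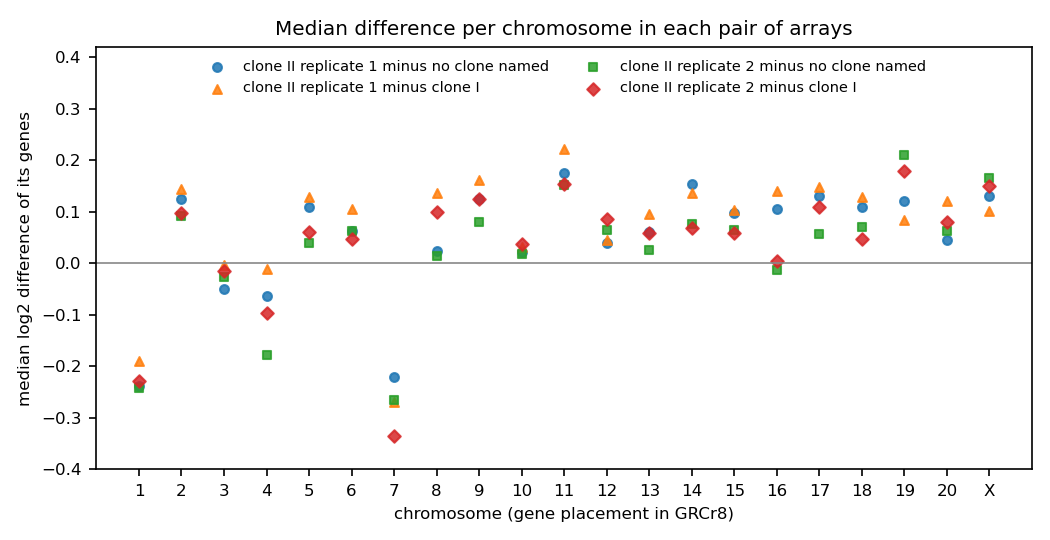
Median log2 difference of the measured genes of each rat chromosome, for each of the 4 pairs of a clone II array and another GLI1 array. All 4 points lie below -0.19 on chromosomes 1 and 7 and above -0.18 on the other chromosomes.

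The shift ran along the whole of both chromosomes. In blocks of 40 neighbouring genes, 31 of 31 on chromosome 1 had a median below 0 (-0.51 to -0.10). So did 16 of 16 on chromosome 7 (-0.41 to -0.16), against 41 of 199 blocks elsewhere. Among the latter, chromosome 4 had 12 of 14 below 0 (lowest -0.24) and chromosome 3 had 11 of 19 (lowest -0.17). Chromosomes 1 and 7 held 18.9% of the measured genes, 34.9% of the 335 genes in the wider class below (71 and 46 genes) and 11.6% of the 146 above. Of the 15 called lower genes, 4 lay on chromosome 1 and 2 on chromosome 7. No 2 called genes were neighbours in the order. Phlda2, at -4.19, lay far below the median of its chromosome.

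**Figure D5:**
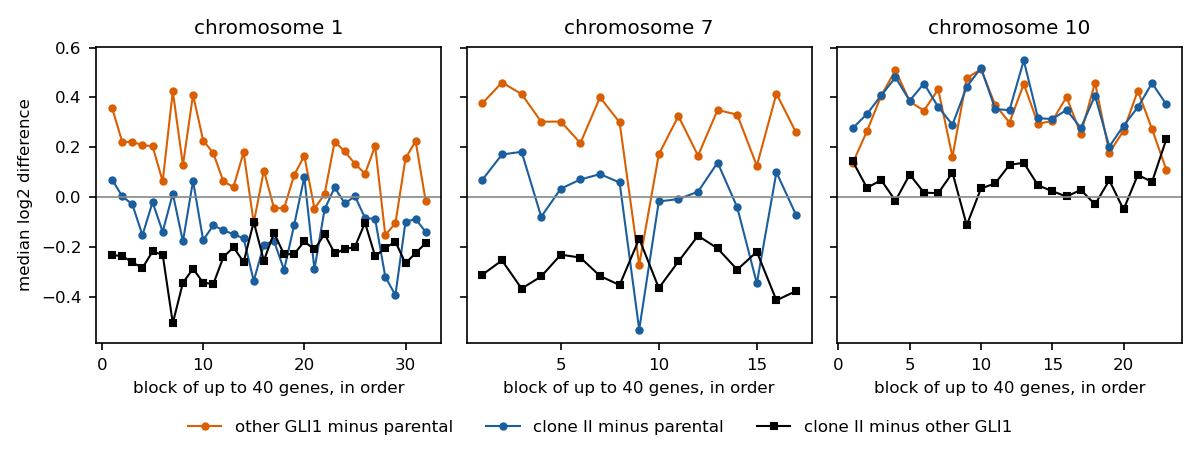
Median log2 difference in blocks of up to 40 measured genes, in their order along chromosomes 1, 7 and 10; black is clone II minus other GLI1 arrays, blue clone II minus parental and orange other GLI1 minus parental. The black line is below 0 in every block of chromosomes 1 and 7, and lies on both sides of 0 on chromosome 10, where it is 0.23 in the last block of 16 genes.

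GLI factors bind a 9-base consensus, GACCACCCA. The RefSeq promoter windows (GRCr8, 250 bases before to 50 after the start) were searched for it on both strands, because the lines share a GLI driver. It was found exactly in 0.415% of 27457 genes with a window and with at most 1 difference in 7.93%. Of the 18 called genes and Dusp6, 15 had a window; 0 held the exact motif and 3 a form with 1 difference, in Dtx4 in 1 of its 2 windows. These 3 are shown on the gene's strand, with the matched bases in capitals, from chr6:21094385-21094433 (plus strand), chr1:218917548-218917596 (minus strand) and chr2:32644543-32644591 (minus strand), and in Dtx4 and Map1b the motif reads on the opposite strand.
Cyp1b1: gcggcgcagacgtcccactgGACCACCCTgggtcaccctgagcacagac
Dtx4: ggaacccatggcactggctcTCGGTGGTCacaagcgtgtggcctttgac
Map1b: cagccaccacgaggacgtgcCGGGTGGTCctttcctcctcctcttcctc
Dtx4 was higher in clone II, and Cyp1b1 and Map1b were lower, so the 3 genes with such a match did not share a direction. A match of letters is no evidence of binding, and sites outside these windows were not searched.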

How the data were processed

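The authors deposited 1 intensity value on a linear scale for every probe set on every array; per the submitters' processing notes MAS5 was used. Its version and the genome build are not given in the sources used here. MAS5 scales each array to a common mean, and the 2% trimmed mean agreed between all 6 arrays to within rounding. The number of arrays, 2 per group, limits the precision.

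Values under 1 were raised to 1 before log2. After 57 controls were left out of 31099 probe sets, the filter kept 18625, those whose mean log2 value passed the 40th percentile of 8.33. A limma model (version 3.58.1, R 4.3.3; lmFit, eBayes with trend, two-sided, Benjamini-Hochberg over all tested probe sets) had 3 groups and 3 residual degrees of freedom. It was also run on simulated arrays with independent noise and known differences added to brighter probe sets. That run does not bear on unlike arrays within a group, RNA quality or dim signals.

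Of the 31042 probe sets other than controls 20826 had 1 gene symbol, 436 several and 9780 none; 20758 were matched to GRCr8 genes. The brightest probe set stood for a gene. Genes named were up to 20 called ones each way, filled to 10 by unadjusted p, Hedgehog genes, and called list members; list members in the wider class were added after their values were seen. A gene that this rule names is not reported here. The members and all 41 lists were chosen with earlier results of these data known. Replicate numbers were not taken as pairs, since deviations of same-numbered arrays correlated at 0.10, 0.32 and 0.07 and no label says that a number marks a shared batch. The alternatives were other scalings, filters, offsets, fits and left-out arrays.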

Additional observations from a re-analysis of the deposited data

Results flagged for a closer look

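For the 18 called genes the change from parental cells was not the same in clone II as on the other GLI1 arrays, by the limma contrast of these 2 sets. The parental level cancels in that contrast, so it is the one by which the 18 genes were called. It is therefore no further support for them. The differences (log2, clone II minus other GLI1 arrays) were 6.30 for C3, 3.98 for Ogn and 3.30 for Dtx4 on the higher side. On the lower side the matrix, surface and keratin genes A2m, Bgn, Flrt1 and Krt8 had -5.02, -2.86, -4.05 and -3.17. Rpp25, Phlda2, Pou3f1 and Cyp1b1 had -4.73, -4.19, -3.96 and -3.13, and Ablim1, Ctsz, Crip2 and Apeg3 had -2.87, -2.33, -2.20 and -2.15. Ccnd2, Tmcc3 and Map1b had -2.05, -2.05 and -1.88.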

How the results depend on the processing

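The fit as reported called 3 probe sets higher and 21 lower, and the counts moved with the setting while no called gene changed its sign. Arrays centred on their medians gave 11 higher and 26 lower, so that 29.7% of calls were higher against 12.5%; quantile normalization gave 3 and 7, no filter 3 and 8, a filter at the 60th percentile 1 and 3, no intensity trend 3 and 1, robust eBayes 7 and 21, and the 4 GLI1 arrays alone 3 and 4. With the GAPDH ratio as a covariate 5 and 30 were called, and without the clone II and parental arrays of highest GAPDH ratio 3 and 4. An offset or a floor of 32, and a 2-fold minimum, gave 3 and 21 each. With the replicate block 22 and 67 were called, and all 18 called genes stayed called; the numbers are not known to pair the arrays. Leaving out each array in turn gave 1 to 50 higher and 0 to 44 lower. The low end came without the array that names no clone and the high end without the clone I array; without clone II replicate 1 the counts were 3 and 7, and without clone II replicate 2 or either parental array 2 and 1. A fit that leaves 1 array in a group assumes that it varies as the other groups do. Ogn was called in 19 of 19 alternatives and C3 in 17 of 18. Of the 18 called genes, the fits without 1 array kept 1 to 14. The cause of these moves was not tested.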
